A study of Homo sapiens with 6 samples.

Results

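The 45 genes described here serve protein import into the endoplasmic reticulum (ER) and the removal of misfolded proteins from it. They were chosen by name from the 26228 rows of a table of RNA levels in AsPC-1, an established line of human pancreatic cancer cells. A list of 46 names, drawn up with earlier results of these data known, was used. In it VIMP and SELENOS are the same gene, found here as VIMP. The cells were given DON (6-diazo-5-oxo-L-norleucine), a mimic of glutamine that inhibits enzymes using it, or vehicle, for 24 h in medium without serum. There were 3 DON libraries and 3 vehicle libraries of poly(A) RNA, all from this cell line with no stated genetic change. The levels are FPKM, fragments scaled by transcript length and by the number of mapped fragments, so levels of different genes can be set side by side per length.

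Proteins bound for secretion or for membranes carry a signal sequence. The signal recognition particle binds it on the ribosome and docks at a receptor on the ER, and the chain passes through the SEC61 channel while signal peptidase cuts the signal off. Chains that fail to fold are read by lectins and chaperones, passed back through the membrane by a ubiquitin ligase complex and pulled out by the ATPase VCP for the proteasome, a route called ER-associated degradation. Many of these genes are known targets of the unfolded protein response, which is prominent in secretory tissues such as the exocrine pancreas.

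FPKM sums ranged from 525200 to 556950 per library. All 5 epithelial markers without a failure mark were at least at 1 FPKM on average, led by KRT19 at 1527 to 2202 FPKM in DON libraries and 1750 to 2377 FPKM in vehicle libraries. Of the 6 fibroblast markers 1 reached 1 FPKM, LUM, at 88.1 to 124 FPKM in DON libraries and 141 to 171 FPKM in vehicle libraries. Of the 5 leukocyte markers 1 did, CD68, at 25.9 to 40.2 FPKM in DON libraries and 16.6 to 28.0 FPKM in vehicle libraries. No endothelial, acinar or islet marker of the lists reached 1 FPKM. All libraries were labelled as the AsPC-1 line, so LUM and CD68 are not read here as signs of other cell types. Their part in the results was not tested. Fewer cells that express a gene and less RNA per cell cannot be told apart in such bulk libraries. HSPA5, the main ER chaperone, averaged 770 ± 92.5 FPKM in DON libraries and 121 ± 15.1 FPKM in vehicle libraries (SD, n = 3 each). DDIT3, a stress transcription factor, averaged 209 ± 26.5 FPKM in DON libraries and 34.2 ± 5.89 FPKM in vehicle libraries.

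Most import and degradation genes were higher in DON. All 45 passed the filter on low values, DERL3 only through its DON libraries. With Benjamini-Hochberg adjustment over 11471 tested genes, limma called 30 of the 45 higher and 1 lower at an adjusted p under 0.05 (a call). Over all tested genes 18.3% were called higher, 20.6% lower and 38.9% in either direction. A log2 fold change of at least 1, a doubling on the log2(FPKM + 1) scale used for the test, was called for 14 members, against 2.83% of all tested genes. In 32 members every DON library lay above every vehicle library, which held for 24.9% of all tested genes. The median log2 fold change was 0.67 over the members and -0.01 over all tested genes. Without DON replicate 1, which lay below the other DON libraries for many members, 33 were called. Leaving out any other library gave 24 to 31.

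**Figure D1:**
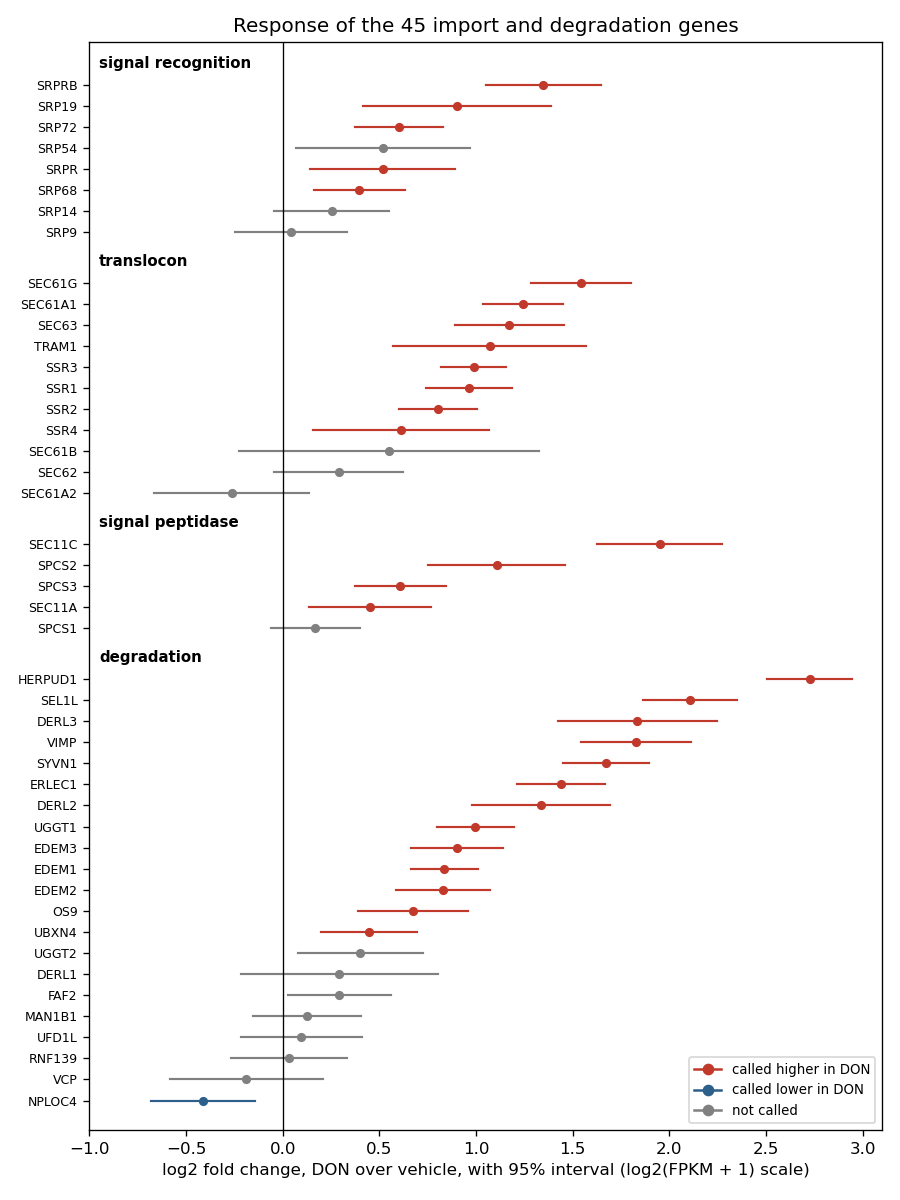
Log2 fold change of each of the 45 genes, DON over vehicle, on the log2(FPKM + 1) scale (horizontal axis), with its 95% interval from limma, grouped by step of the pathway. Red marks genes called higher in DON (30), blue the gene called lower (NPLOC4) and grey those not called; HERPUD1 lies farthest to the right at 2.73.

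Each of the 4 steps of the pathway had more genes called higher than lower. Of 8 signal recognition genes 5 were called higher and 0 lower (median log2 fold change 0.52). Of 11 translocon genes 8 were called higher and 0 lower (median 0.96), and of 5 signal peptidase genes 4 were called higher and 0 lower (median 0.61). Of 21 degradation genes 13 were called higher and 1 lower (median 0.83), with the widest range of the groups, from -0.41 for NPLOC4 to 2.73 for HERPUD1. Per library, the median deviation of degradation genes from the vehicle mean was 0.82, 0.81 and 0.83 in DON libraries, against -0.07, 0.03 and -0.01 in vehicle libraries. For translocon genes it was 0.74, 0.99 and 0.98 in DON libraries, against -0.08, -0.05 and 0.10 in vehicle libraries. Signal peptidase genes stood at 0.70, 0.64 and 0.72 in DON libraries, against 0.08, 0.03 and -0.06 in vehicle libraries. Signal recognition genes stood at 0.27, 0.62 and 0.68 in DON libraries, against -0.00285, -0.07 and 0.15 in vehicle libraries. In all 4 groups each DON median lay above each vehicle median. The differences between the groups were not tested.

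**Figure D2:**
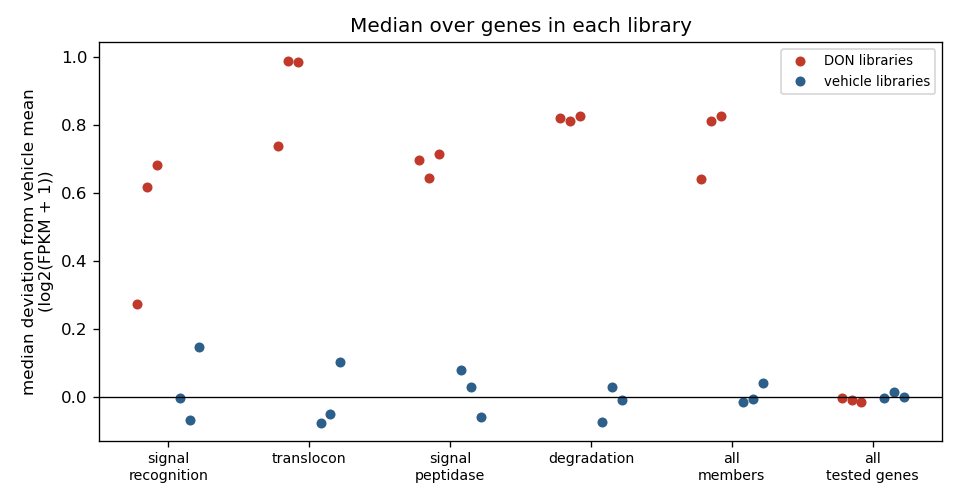
Median over the genes of a group of the deviation from the vehicle mean, in log2(FPKM + 1) (vertical axis), for each DON library (red) and each vehicle library (blue). The DON libraries sit between 0.27 and 0.99 in the 4 groups, and the medians over all tested genes lie near 0 in every library.

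Promoters were also looked at, as a description without a test. RefSeq (build GRCh38.p14) gave promoters for 38 of the 45 members, for 1 or more transcript starts each, from 250 bases before to 50 after. DERL1, DERL3, RNF139, SPCS1, SRPR, TRAM1 and UFD1L were not looked at. The ER stress element (CCAAT, 9 bases, CCACG), a site for ATF6 with NF-Y, was searched on either strand. As an exact match it was in none of the 38 members and in 0.0916% of the 27305 genes in the promoter table. Near matches were not searched for. The HERPUD1 stretch below ends in CCAAT, 9 bases and CCAC, the element up to its last letter, which was not counted. The second form of the element (ATTGG, 1 base, CCACG) was in 1 member, HERPUD1, and in 0.0696% of all genes. The element TGACGTGG, a site bound by XBP1 and ATF6, was in 5 members (13.2%), SRP19, SSR3, SSR4, SEC62 and VCP, and in 0.927% of all genes. The motifs share the letters CCACG or their complement, and no match overlapped another in the members. These are matches of letters only. All 45 members passed the filter on low values, while the shares of all genes include genes not tested here. Shares among tested genes were not computed. Of these 6 genes HERPUD1, SRP19, SSR3 and SSR4 were called higher, and SEC62 and VCP were not called. The stretches around the matches are shown because HERPUD1 had the largest fold change of all members and the other 5 lie in 3 of the 4 steps. Capitals mark the match, on the strand of the gene, and each stretch stops before the transcript start.
HERPUD1 (chr16:56931984-56932076, plus strand, match from 117 to 107 bases before the start): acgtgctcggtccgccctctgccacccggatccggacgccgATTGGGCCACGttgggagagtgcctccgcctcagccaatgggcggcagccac
SRP19 (chr5:112861134-112861223, plus strand, match from 112 to 105 bases before the start): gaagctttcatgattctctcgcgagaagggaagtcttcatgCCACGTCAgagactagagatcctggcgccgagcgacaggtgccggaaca
SSR3 (chr3:156554126-156554207, minus strand, match from 41 to 34 bases before the start of one of its transcripts): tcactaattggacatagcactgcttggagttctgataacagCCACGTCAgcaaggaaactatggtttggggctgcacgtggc
SSR4 (chrX:153794498-153794587, plus strand, match from 129 to 122 bases before the start of one of its transcripts): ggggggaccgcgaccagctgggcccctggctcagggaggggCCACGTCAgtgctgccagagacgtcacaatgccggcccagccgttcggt
SEC62 (chr3:169966749-169966806, plus strand, match from 17 to 10 bases before the start): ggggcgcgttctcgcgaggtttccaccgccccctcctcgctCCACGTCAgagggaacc
VCP (chr9:35072766-35072855, minus strand, match from 189 to 182 bases before the start): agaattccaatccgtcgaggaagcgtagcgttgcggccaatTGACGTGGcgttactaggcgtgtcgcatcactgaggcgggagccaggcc

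In signal recognition, both receptor genes were called higher. SRPRB, the membrane-anchored GTPase of the receptor, had 53.6, 47.0 and 40.0 FPKM in DON libraries, against 17.5, 19.3 and 16.3 FPKM in vehicle libraries. The groups were far apart, with a log2 fold change of 1.35 ± 0.13 SE and an adjusted p of 0.000366. SRPR, the other GTPase of the receptor, had 39.9, 53.3 and 56.6 FPKM in DON libraries, against 30.4, 33.2 and 39.7 FPKM in vehicle libraries. Its lowest DON library, replicate 1, lay just above its highest vehicle library (log2 fold change 0.52 ± 0.16 SE, adjusted p = 0.0386). Leaving out DON 2, DON 3, vehicle 1 or vehicle 2 ended the SRPR call (adjusted p between 0.106 and 0.129), as did quantile normalization (adjusted p = 0.0512).

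Of the 6 protein subunits of the particle 3 were called higher and 0 lower. SRP19, which the particle needs to take up SRP54, had 33.6, 47.0 and 49.0 FPKM in DON libraries, against 22.3, 17.6 and 28.5 FPKM in vehicle libraries. It showed no overlap between the groups and a log2 fold change of 0.90 ± 0.21 SE (adjusted p = 0.0135, and 0.0562 without DON 2). SRP72 and SRP68, which bind each other on the particle's RNA, were called higher at log2 fold changes of 0.60 and 0.40 (adjusted p = 0.00333 and 0.0195). SRP72 averaged 74.9 ± 3.48 FPKM in DON libraries and 49.1 ± 4.81 FPKM in vehicle libraries (SD, n = 3 each, as in all such means below). SRP68 averaged 52.2 ± 2.39 FPKM in DON libraries and 39.6 ± 4.32 FPKM in vehicle libraries. The call of SRP68 ended when DON 2, DON 3, vehicle 2 or vehicle 3 was left out (adjusted p up to 0.0848, and just above 0.05 without vehicle 3). SRP54, the GTPase that holds the signal sequence, had 29.5, 42.0 and 48.5 FPKM in DON libraries, against 28.1, 23.4 and 30.2 FPKM in vehicle libraries. DON 1 fell within the vehicle range, and SRP54 was not called (log2 fold change 0.52, 95% interval 0.07 to 0.97, adjusted p = 0.0676, and 0.00835 without DON 1). SRP9 and SRP14, a pair that slows the ribosome, were not called. SRP9 had 282, 270.0 and 223 FPKM in DON libraries, against 271, 258 and 223 FPKM in vehicle libraries, a log2 fold change of 0.04 with a 95% interval of -0.25 to 0.33. SRP14 averaged 126 ± 15.7 FPKM in DON libraries and 105 ± 11.8 FPKM in vehicle libraries (95% interval -0.04 to 0.55). The most abundant subunit of the particle per length was thus SRP9 in every library, and its groups overlapped.

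Of the channel itself, 2 of 4 genes were called higher. SEC61G, a small subunit, was the most abundant member in each DON library. It had 696, 866 and 856 FPKM in DON libraries, against 287, 267 and 269.5 FPKM in vehicle libraries (log2 fold change 1.54 ± 0.11 SE, adjusted p = 0.000135). SEC61A1, the pore-forming subunit, had 152, 156 and 164 FPKM in DON libraries, against 62.4, 63.5 and 71.98 FPKM in vehicle libraries (1.24 ± 0.09 SE, adjusted p = 0.000135). In both genes the DON libraries lay well above all vehicle libraries. SEC61A2, a second gene for the pore subunit, was low throughout, with 1.82, 2.18 and 1.99 FPKM in DON libraries, against 3.30, 1.85 and 2.77 FPKM in vehicle libraries. Its groups overlapped, and it was not called (log2 fold change -0.26, 95% interval -0.66 to 0.14). SEC61B, the other small subunit, had 94.8, 195 and 199 FPKM in DON libraries, against 123, 75.2 and 126 FPKM in vehicle libraries. DON 1 stood inside the vehicle range and the gene was not called (adjusted p = 0.224), whereas without DON 1 it was called higher (adjusted p = 0.0230).

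The translocon-associated protein complex, which sits beside the channel and helps some signal sequences open it, had all 4 of its genes called higher. SSR3 averaged 90.9 ± 1.21 FPKM in DON libraries and 45.4 ± 1.21 FPKM in vehicle libraries. SSR1 stood at 41.1 ± 2.74 FPKM in DON libraries and 20.6 ± 1.54 FPKM in vehicle libraries, and SSR2 at 483 ± 20.0 FPKM in DON libraries and 276 ± 16.9 FPKM in vehicle libraries. These 3 had log2 fold changes of 0.99, 0.96 and 0.80 and no overlap between groups. SSR4 was more variable, at 197, 273 and 292 FPKM in DON libraries, against 137, 158 and 201 FPKM in vehicle libraries. DON 1 lay below vehicle 3, and the call (log2 fold change 0.61 ± 0.19 SE, adjusted p = 0.0427) ended when DON 2, DON 3, vehicle 1 or vehicle 2 was left out (adjusted p between 0.113 and 0.135).

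SEC63, which recruits the chaperone HSPA5 to the channel, had 28.5, 34.1 and 37.2 FPKM in DON libraries, against 13.1, 14.1 and 15.2 FPKM in vehicle libraries (log2 fold change 1.17 ± 0.12 SE, adjusted p = 0.000496). SEC62, its partner in the import of finished chains, had 28.1, 34.3 and 35.7 FPKM in DON libraries, against 24.6, 23.7 and 31.6 FPKM in vehicle libraries. SEC63 thus showed groups that were far apart, while the groups of SEC62 overlapped and it was not called (0.29, 95% interval -0.04 to 0.62). The SEC62 call was gained without vehicle 3, at adjusted p = 0.0440. TRAM1, which contacts the entering chain, had 203, 297 and 339 FPKM in DON libraries, against 120.5, 115 and 158 FPKM in vehicle libraries. It was called higher (1.07 ± 0.21 SE, adjusted p = 0.00764) whichever library was left out.

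**Figure D3:**
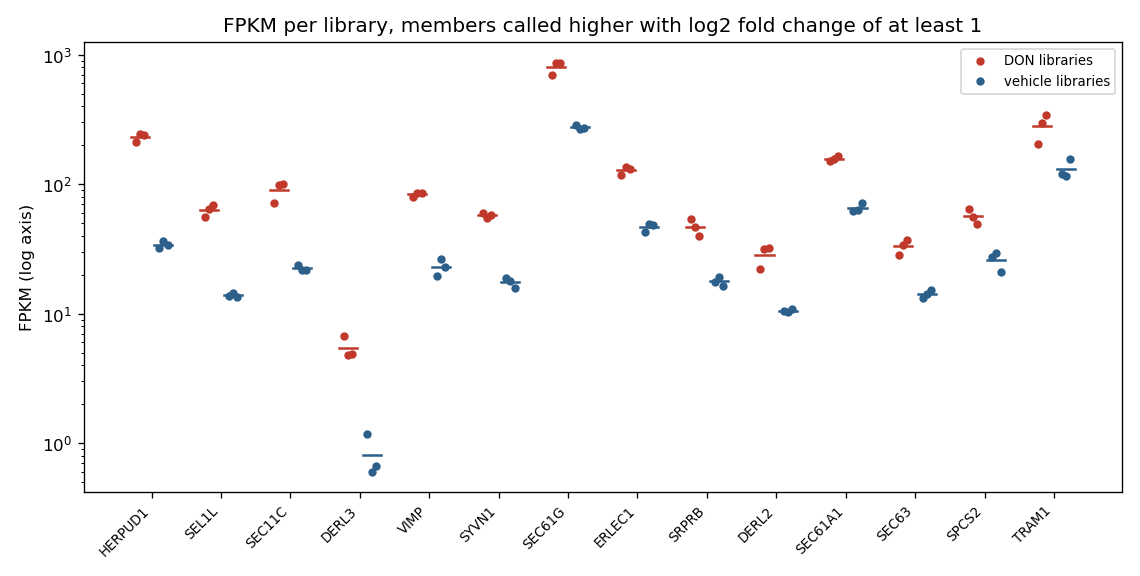
FPKM in each library (points, log axis) with the group mean (bar), DON in red left of vehicle in blue, for the 14 genes called higher with a log2 fold change of at least 1. No DON library overlaps a vehicle library in any of them, which the choice of genes by call and size in these same libraries makes likely. Levels run from 0.599 FPKM (DERL3, vehicle 2) to 866 FPKM (SEC61G, DON 2).

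Signal peptidase cuts the signal sequence with either of 2 catalytic subunits, SEC11C or SEC11A. Both were called higher, SEC11C by more. SEC11C had 72.1, 98.3 and 99.8 FPKM in DON libraries, against 23.6, 21.6 and 21.8 FPKM in vehicle libraries. It was 4.03-fold higher by ratio of means (log2 fold change 1.95 ± 0.14 SE, adjusted p = 0.000133), the largest change among import genes. SEC11A had 171, 133 and 131 FPKM in DON libraries, against 104, 117 and 95.1 FPKM in vehicle libraries. All its DON libraries were above all vehicle libraries, but by less (0.45 ± 0.13 SE, adjusted p = 0.0344). Leaving out DON 1, DON 2, vehicle 1 or vehicle 3 ended that call (adjusted p between 0.0538 and 0.0922). It was also lost after a correction for GC content (adjusted p = 0.131).

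Among the accessory subunits, SPCS2 had 64.5, 56.2 and 49.6 FPKM in DON libraries, against 27.4, 29.3 and 21.1 FPKM in vehicle libraries. The groups were well apart (log2 fold change 1.11 ± 0.15 SE, adjusted p = 0.00165), though 4 pseudogenes carry its name in GENCODE v29 and could take or give reads. SPCS3 averaged 58.0 ± 5.11 FPKM in DON libraries and 37.6 ± 2.85 FPKM in vehicle libraries and was called higher (0.61, adjusted p = 0.00372). SPCS1 had 144, 168 and 139 FPKM in DON libraries, against 127, 135 and 136 FPKM in vehicle libraries. Its groups did not overlap, yet the gap was small and it was not called (0.17, 95% interval -0.06 to 0.40). SPCS1 shares exons with GLT8D1 on the opposite strand, which was itself called higher, and the sources used here do not say whether counting used strand.

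In degradation, the ligase complex and its derlins held the largest changes, with 5 of 6 genes called higher and a median log2 fold change of 1.75. HERPUD1, a membrane scaffold of the complex, had 212, 245 and 239 FPKM in DON libraries, against 32.1, 36.6 and 33.9 FPKM in vehicle libraries. It was 6.78-fold higher by ratio of means (log2 fold change 2.73 ± 0.09 SE, adjusted p = 1.61e-05). SEL1L, the adaptor that hands substrates to the ligase, had 55.4, 64.8 and 69.3 FPKM in DON libraries, against 13.6, 14.4 and 13.5 FPKM in vehicle libraries (2.11 ± 0.10 SE, adjusted p = 3.95e-05). SYVN1, the ubiquitin ligase HRD1 itself, had 59.95, 55.3 and 57.5 FPKM in DON libraries, against 18.8, 17.9 and 15.6 FPKM in vehicle libraries (1.67 ± 0.09 SE, adjusted p = 6.29e-05). All 3 showed a wide gap between the groups and little spread within them. SYVN1 has exons in common with the abundant FAU in GENCODE v29, and FAU was not called.

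The derlins are membrane proteins that form part of the route back to the cytosol, and 2 of the 3 genes were called higher. DERL2 had 21.9, 31.5 and 32.4 FPKM in DON libraries, against 10.5, 10.3 and 10.9 FPKM in vehicle libraries, with no overlap (log2 fold change 1.34 ± 0.15 SE, adjusted p = 0.0008). MIS12, which overlaps DERL2 on the opposite strand, was called higher too, at means of 26.9 FPKM in DON libraries and 13.2 FPKM in vehicle libraries, and reads of the pair may not be told apart. DERL3 had 6.68, 4.81 and 4.87 FPKM in DON libraries, against 1.17, 0.599 and 0.665 FPKM in vehicle libraries. It stayed the lowest of the derlins in every library, and its groups did not overlap (log2 fold change 1.83 ± 0.17 SE, adjusted p = 0.000389). Its ratio of means was 6.71-fold, a figure that the added 1 FPKM reduces on the log2 scale. Vehicle 2 and vehicle 3 lay below 1 FPKM, so DERL3 entered the test only through its DON libraries, where it was high. DERL1 had 29.7, 37.4 and 43.6 FPKM in DON libraries, against 22.3, 30.0 and 38.5 FPKM in vehicle libraries. Those groups overlapped and DERL1 was not called (0.29, 95% interval -0.22 to 0.80). DERL1 was the highest of the 3 derlins in every library of both groups.

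Of 8 genes that trim, check or read N-glycans 6 were called higher. ERLEC1, a lectin of the ligase complex, had 117, 136 and 132 FPKM in DON libraries, against 42.9, 49.2 and 48.4 FPKM in vehicle libraries (log2 fold change 1.44 ± 0.10 SE, adjusted p = 0.000117). OS9, the other such lectin, had 127, 111 and 102 FPKM in DON libraries, against 66.1, 80.2 and 66.0 FPKM in vehicle libraries (0.67 ± 0.12 SE, adjusted p = 0.00528). In vehicle libraries OS9 was the more abundant of these lectins in all 3, and in DON libraries it was so in DON 1. The EDEM proteins, which trim mannose from misfolded glycoproteins, were all called higher. EDEM1 averaged 26.2 ± 0.295 FPKM in DON libraries and 14.2 ± 0.274 FPKM in vehicle libraries. EDEM2 stood at 48.4 ± 0.644 FPKM in DON libraries and 27.0 ± 3.35 FPKM in vehicle libraries, and EDEM3 at 29.4 ± 2.90 FPKM in DON libraries and 15.2 ± 0.955 FPKM in vehicle libraries. All 3 showed no overlap, at log2 fold changes of 0.84, 0.83 and 0.90. UGGT1, which checks folding and sends chains back to the lectin chaperones, had 27.3, 25.4 and 25.1 FPKM in DON libraries, against 12.2, 13.3 and 12.0 FPKM in vehicle libraries (0.997 ± 0.08 SE, adjusted p = 0.000251). UGGT2, its relative, had 5.77, 6.11 and 6.11 FPKM in DON libraries, against 3.39, 4.55 and 5.10 FPKM in vehicle libraries. Its groups did not overlap but it was not called (0.40, 95% interval 0.08 to 0.73, adjusted p = 0.0542, and 0.0295 without vehicle 3). MAN1B1, a mannosidase, averaged 35.8 ± 5.04 FPKM in DON libraries and 32.6 ± 2.07 FPKM in vehicle libraries and was not called (0.13, 95% interval -0.15 to 0.41), except after a correction for GC content (adjusted p = 0.0250).

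Of the 6 genes that pull substrates into the cytosol 2 were called higher and 1 lower, with a median log2 fold change of 0.19. VIMP encodes selenoprotein S, which ties VCP to the ER membrane. It had 79.0, 85.0 and 85.9 FPKM in DON libraries, against 19.4, 26.4 and 22.9 FPKM in vehicle libraries, far apart (log2 fold change 1.83 ± 0.12 SE, adjusted p = 0.000111). UBXN4, another membrane anchor of VCP, averaged 83.4 ± 8.69 FPKM in DON libraries and 60.8 ± 4.48 FPKM in vehicle libraries (0.45, adjusted p = 0.0155). The UBXN4 call ended when DON 2, DON 3, vehicle 1 or vehicle 2 was left out (adjusted p between 0.0553 and 0.0674). VCP had 139.6, 108 and 97.1 FPKM in DON libraries, against 129, 151 and 111 FPKM in vehicle libraries, and was not called (-0.19, 95% interval -0.58 to 0.21). NPLOC4 and UFD1L encode the cofactor pair through which VCP grips ubiquitin chains. NPLOC4 was the gene called lower, with 20.6, 18.8 and 18.4 FPKM in DON libraries, against 30.3, 24.5 and 23.5 FPKM in vehicle libraries. Its groups did not overlap (-0.41 ± 0.11 SE, adjusted p = 0.0278), but the call ended when DON 2, DON 3, vehicle 1 or vehicle 2 was left out (adjusted p between 0.0551 and 0.0981). UFD1L averaged 27.6 ± 4.15 FPKM in DON libraries and 25.6 ± 2.53 FPKM in vehicle libraries (95% interval -0.22 to 0.41). FAF2, a further recruiter of VCP, averaged 27.4 ± 2.44 FPKM in DON libraries and 22.2 ± 2.43 FPKM in vehicle libraries (0.29, 95% interval 0.03 to 0.56, adjusted p = 0.0767, and 0.0491 without DON 1). RNF139, a separate ubiquitin ligase of the ER membrane, averaged 19.7 ± 2.03 FPKM in DON libraries and 19.3 ± 2.70 FPKM in vehicle libraries (95% interval -0.27 to 0.33).

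Related or partner genes were also set against each other within each library, as the log2 ratio of their FPKM + 1. Of 10 pairs, 7 had ratios that did not overlap between DON and vehicle libraries. The share among other pairs of genes was not computed, so this count has no background beside it. SEC61A2, SEC62, DERL1 and UGGT2 were not called, so the ratios with their partners partly repeat the calls of those partners. The ratio of SEC11C to SEC11A was -1.24, -0.43 and -0.39 in DON libraries, against -2.09, -2.39 and -2.07 in vehicle libraries, a difference of 1.499. That of SEC61A2 to SEC61A1 was -5.76, -5.62 and -5.79 in DON libraries, against -3.88, -4.50 and -4.27 in vehicle libraries, a difference of -1.51. The ratios of DERL2 to DERL1, SEC63 to SEC62, SRPRB to SRPR and ERLEC1 to OS9 were higher in DON by 1.04, 0.88, 0.83 and 0.77. That of UGGT2 to UGGT1 was lower in DON by a difference of -0.59. Each of these 7 had the smallest p that an exact two-sided permutation test allows with 3 against 3 libraries, 0.1 (0.143 adjusted over the 10 pairs), so none could pass 0.05. DERL3 to DERL2, EDEM2 to EDEM1 and EDEM3 to EDEM1 overlapped between the groups, with differences of 0.50, -0.00663 and 0.07 (exact permutation p = 0.3, 1 and 0.6). The difference for DERL3 to DERL2 was 0.19 without DON 1, and 1.23 with 0.1 FPKM added in place of 1 (exact permutation p = 0.1).

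**Figure D4:**
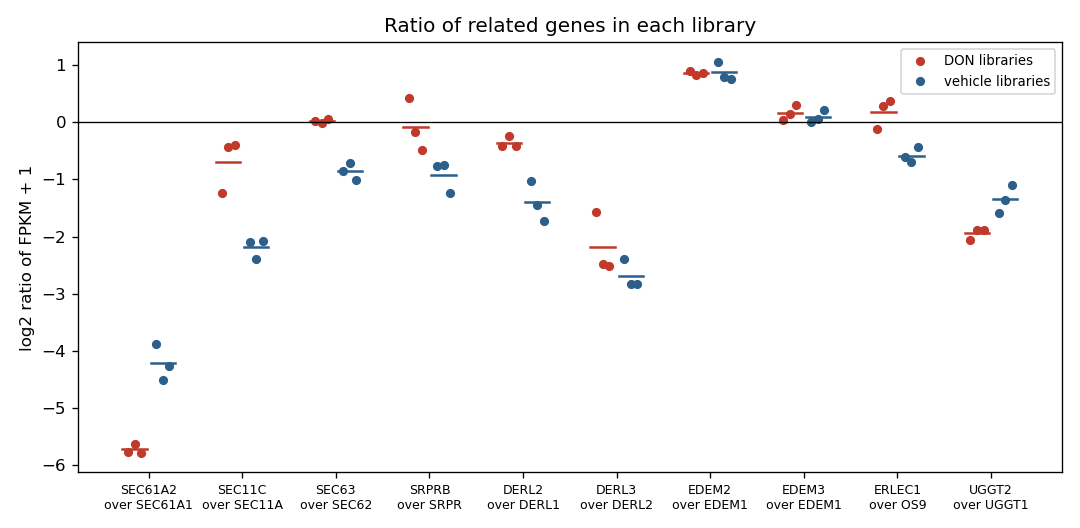
Log2 ratio of the FPKM + 1 of related or partner genes in each library (points) with the group mean (bar), DON in red left of vehicle in blue. The DON and vehicle points are apart in 7 of the 10 pairs, most in SEC61A2 over SEC61A1 and SEC11C over SEC11A, and mixed for the EDEM pairs.

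Other genes of ER insertion and degradation were taken from lists of their roles. Of 15 tested genes of the ER membrane complex and of multipass insertion 4 were called higher and 2 lower (median log2 fold change 0.17). The channel partner TRAM2 averaged 4.71 ± 0.172 FPKM in DON libraries and 2.69 ± 0.215 FPKM in vehicle libraries. EMC2 and EMC7, subunits of the ER membrane complex, were called higher at log2 fold changes of 0.55 and 0.50, and its subunits EMC10 and EMC9 lower at -0.64 and -0.39. Of 8 genes for inserting tail-anchored proteins 1 was called higher, the receptor subunit CAMLG (0.81), and 1 lower, the targeting ATPase ASNA1 (-0.41), with a median of -0.10. Of 34 tested further degradation genes 7 were called higher and 3 lower (median 0.05). SDF2L1, a chaperone partner, averaged 151 ± 46.7 FPKM in DON libraries and 19.7 ± 4.85 FPKM in vehicle libraries. DNAJB9, a co-chaperone that brings substrates to degradation, averaged 123 ± 1.82 FPKM in DON libraries and 16.5 ± 2.53 FPKM in vehicle libraries. UBE2J1, the ubiquitin-conjugating enzyme that works with SYVN1, averaged 62.7 ± 3.59 FPKM in DON libraries and 21.6 ± 1.32 FPKM in vehicle libraries. Among those called lower were FBXO2, a ubiquitin ligase subunit that binds glycans, and the ligase TMEM129, at log2 fold changes of -1.43 and -0.50. The shares of these lists called higher were 26.7%, 12.5% and 20.6% against 18.3% of all tested genes, while that of the members was 66.7%. The differences between the lists were not tested, and members and lists were chosen with earlier results of these data known.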

How the data were processed

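The authors deposited FPKM values for gene symbols in each library. The submitters' processing notes name STAR and the build hg19, without versions. Libraries were strand-directed and read as single 75 bp ends, per the labels' protocols. The sources used here do not give the counting program, its annotation or its use of strand. Columns named control were taken as vehicle. The lowest value was 0.01, and 41 rows with a failure mark were left out. FPKM hold no counts, so absolute depth is unknown. Steps between low values put relative depth at 1.25 to 1.70 against vehicle 1, the shallowest.

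Values were transformed to log2(FPKM + 1), which understates changes of low genes. Genes reaching 1 FPKM in 3 or more libraries were tested two-sided in limma 3.58.1 (R 4.3.3) with an intensity trend and no block. The fit was also run on simulated data with independent libraries and far fewer changed genes than were called here. That run cannot show how the fit behaves when libraries share deviations. Tables were handled with Python 3.11.15 and pandas 2.3.3, permutation tests with scipy 1.17.1. Nothing in the labels says that replicates were separate cultures. The spread behind the p-values is then that of these samples and may be technical. Named in full were members called at a log2 fold change of at least 1, the extremes of each group, and related pairs; of other lists, up to 3 called genes per direction. Members, lists and grouping by role were chosen with earlier results of these data known. In GENCODE v29 exons of 13 members overlap a gene of the table, and 10 members have pseudogenes of their name, so their values are less certain. MARCH6 (a date in the table), EMC1 (a failure mark) and RNF5 (low) were not tested. One further degradation gene called lower is not reported here.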

Additional observations from a re-analysis of the deposited data

How the results depend on the processing

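The alternatives were quantile normalization, median-of-ratios scaling, no filter on low values or one at 5 FPKM, a pseudocount of 0.1, no trend, a replicate block, a split term (DON 1, vehicle 1 and vehicle 2 against the rest), leaving out each library, and, chosen after seeing the data, a correction for GC content. Of 31 called members 23 were called in the same direction under all 15 alternatives that tested them, and no called member changed direction. Of the members not called, 3 changed sign. RNF139 was at -0.0542 with the split term, -0.0789 with the GC correction and -0.0665 to 0.126 when libraries were left out. SRP9 was at -0.0705 with the GC correction and -0.0389 to 0.144 when libraries were left out, and UFD1L at -0.00471 with the split term. The 8 called members whose call was lost under an alternative were UBXN4, NPLOC4, SEC11A, SRP19, SRPR, SRP68, TRAM1 and SSR4, all lost without a filter (SRPR also under quantile normalization), which left 2942 genes, 2 signal recognition genes and 0 members lower. Leaving out each library gave 2697 (without DON 2) to 4656 called genes, 24 to 33 members, 2 to 6 signal recognition genes and 0 to 1 members lower. The median log2 fold change was then 0.67 to 0.82 over all members, 0.56 to 0.68 for signal peptidase and 0.76 to 0.84 for degradation. For signal recognition it was 0.41 (without DON 3) to 0.65 (without DON 1), and for translocon 0.905 to 0.996. With the GC correction the medians over all members, signal peptidase and degradation were 0.78, 0.49 and 0.78. The filter at 5 FPKM gave 0.75 for degradation, and the split term gave 0.40 for signal recognition. In the other lists, no filter left 3 insertion genes and 1 tail-anchor gene. Leaving out libraries gave 1 to 3 tail-anchor genes (1 without vehicle 2 or without DON 2), and the split term gave 10 insertion and 19 further degradation genes. The difference of EDEM2 to EDEM1 took either sign, from -0.0623 to 0.0856, and that of EDEM3 to EDEM1 ran from -0.0049 to 0.128, when libraries were left out. The causes were not tested. Libraries of the same number share a replicate number, and whether they were otherwise paired is not known (correlations of deviations 0.254, -0.184 and 0.502). These correlations cannot decide it, because deviations within a group are not independent of each other. Deviations of DON 1 correlated at 0.254 and 0.390 with vehicle 1 and vehicle 2, and at -0.566 with vehicle 3. Those of DON 2 and DON 3 correlated at 0.284 and 0.502 with vehicle 3, and negatively with vehicle 1 and vehicle 2. The split term groups the libraries in the same way, and no label names such a split, so it is no check made apart from these data. It called 6031 genes, against 4459 in the main fit. The replicate block called 35 members, adding UGGT2, DERL1, FAF2 and SRP54, and 18 further degradation genes.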
